A study of Mus musculus with 9 samples.

Results

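This report describes the genes of the CHD chromatin remodelers and of the acetyltransferase coactivators CBP and p300 in mouse liver: Chd1, Chd2, Chd3, Chd4, Chd6, Chd7, Chd8, Chd9, Crebbp (CBP) and Ep300 (p300), 10 of the 56748 genes in the deposited count table. They were chosen by gene symbol, after Crebbp and Chd9 had been seen to lie higher with indirubin in these same libraries, so every comparison with indirubin is a description of them and not a test. Bulk RNA sequencing was carried out on livers of 9 mice in 3 groups of 3, labelled C57BL/6 and named C57BL/6J in the series description. Control mice carry the treatment label water. DSS mice received 1.8% dextran sulfate sodium, an agent that injures the colonic epithelium, in their drinking water for 3 cycles, plus oral sterile water as vehicle. Indirubin mice received the same DSS and 1 g/kg/day of oral indirubin, an indole pigment of indigo naturalis and a known ligand of the aryl hydrocarbon receptor (AhR). The series description does not say plainly that Control mice were spared DSS, which leaves their state uncertain. Hepatocyte transcripts marked every library as liver, with all 6 listed markers detected in each.

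CHD proteins are ATP-driven motors that slide, space or evict nucleosomes and carry paired chromodomains. Chd1 and Chd2 are associated with active transcription, Chd3 and Chd4 are the motors of the NuRD deacetylase complex, and Chd6, Chd7, Chd8 and Chd9 form a further subfamily. CBP and p300 are paralogous lysine acetyltransferases. They are recruited by transcription factors such as CREB, hypoxia-inducible factors and C/EBPβ, and acetylate histone H3 at enhancers and promoters. In liver they serve the fasting programme of gluconeogenesis, among others. The AhR also acts through such coactivators, with its partner Arnt, at sites that share the letters GCGTG.

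The stretch before the start sites of Chd9 and Crebbp, the pair of genes for which the set was drawn up, was therefore read for those letters. In the RefSeq promoter table (build GRCm38.p6), 6 of the 10 genes had an entry: Chd4, Chd6, Chd8, Chd9, Crebbp and Ep300. Searched on both strands, where its complement reads CACGC, this motif occurred 3 times in the 250 bases before the first Chd9 start site (chr8:90828585-90828834, plus strand). These are shown with the matched letters in capitals and 10 bases on either side, because they are the matches found for the gene that differed most in level between the groups.
Chd9, 226 to 230 bases upstream (chr8:90828595-90828619): acagctcctcCACGCctccaagaaa
Chd9, 189 to 193 bases upstream (chr8:90828632-90828656): ttccgttcccCACGCtccccaaggg
Chd9, 106 to 110 bases upstream (chr8:90828715-90828739): gaagccaccaGCGTGggaaggccca
The GENCODE vM21 annotation places all 3 within the 5′ untranslated region of a longer Chd9 transcript. Of all 32851 promoter entries, 28.2% hold these letters at least once and 8.63% at least 2 times in the same length. The second Chd9 start site (chr8:90931999-90932248), Crebbp (chr16:4213405-4213654, minus strand), Ep300 and Chd6 had no match, while Chd8 and one Chd4 start site had 1 each. The cAMP response element TGACGTCA was in none of the 6 genes' windows, and in 1.55% of all. A match is a stretch of letters and not evidence of binding.

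The deposited counts placed few reads on these genes. Library totals lay between 6514863 and 7944684 counts, but 71.6% to 91.3% of them came from the mitochondrial genome, which left 569044 to 2132208 nuclear counts. In normalized CPM (counts scaled by library total and TMM factor over the 9 libraries) a single count was worth 0.0816 to 0.242. Indirubin-2 and Indirubin-3 stood apart from the other libraries: all 8 listed pancreatic acinar transcripts were detected in each, summing to 578 and 792 normalized CPM, against 0 to 13.3 in the other 7 libraries. For Crebbp, Chd9, Chd7, Chd6, Chd1 and the regulator lists, values without those libraries are given below, which leave Indirubin-1 as the only Indirubin library. P-values measure the spread between these mice, and with 3 against 3 the smallest p of an exact permutation test is 0.10.

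The coactivator Crebbp (ENSMUSG00000022521, chromosome 16, 3899192 to 4031861, build GRCm39) had 2, 6 and 10 counts in the Control libraries, 6, 4 and 11 in the DSS libraries, and 90, 51 and 90 in the Indirubin libraries. In normalized CPM these were 0.387, 1.05 and 2.42, then 0.708, 0.706 and 1.00, then 16.5, 4.16 and 7.74. All 3 Indirubin libraries lay above all 6 others. The group levels were 1.29 ± 1.04, 0.805 ± 0.170 and 9.45 ± 6.33 normalized CPM (mean ± SD, n = 3), and Crebbp was 11.4-fold higher with indirubin than with DSS (log2 fold change 3.51, standard error 0.71). Against Control the log2 fold change was 2.90 (standard error 0.75), with 2.10 without Indirubin-1, 3.65 without Control-3 and 3.67 with Indirubin-1 alone. The highest Crebbp level belonged to Indirubin-1, a library in which 3 of the 8 pancreatic transcripts were detected, at a sum of 9.51 normalized CPM. With Indirubin-1 as the only Indirubin library, the log2 fold change against DSS was 4.31, and without it 2.76. The summed markers of some cell types also separated Indirubin from DSS libraries. Those of sinusoidal endothelial cells lay at 35.3 to 46.6 normalized CPM with indirubin against 16.4 to 28.0 with DSS, and those of cycling cells at 5.49 to 8.34 against 0 to 2.12. The neutrophil and pancreatic acinar lists did so too. In Control the endothelial and cycling lists lay at 20.3 to 40.5 and 0 to 5.58, which overlapped the Indirubin libraries. The erythroid markers lay at 126 to 207 in DSS and at 145 in Indirubin-1, which overlapped, but at 610 and 575 in Indirubin-2 and Indirubin-3. The part of these cells in the Crebbp level was not tested, and in bulk liver, more cells of a type and more RNA per cell cannot be told apart.

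Its paralog Ep300 (ENSMUSG00000055024, chromosome 15, 81469552 to 81536278) showed no such separation. It had 37, 22 and 6 counts in Control, 74, 35 and 14 in DSS, and 23, 53 and 77 in Indirubin libraries, at 4.16 ± 2.87, 5.39 ± 3.79 and 5.05 ± 1.36 normalized CPM. The 3 groups overlapped, and the log2 fold change with indirubin was -0.09 (standard error 0.68) against DSS. That sign was not stable: the value was 0.34 when the libraries were scaled by their total alone, 0.18 with the replicate number as a block, 0.02 without Indirubin-2, and between -0.57 without DSS-3 and 0.34 without DSS-1 when a single library was left out.

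The share of Crebbp within the pair does not depend on how libraries are scaled. Of the summed Crebbp and Ep300 counts, Crebbp made up 7.50% in DSS-1 (95% exact binomial interval 2.80 to 15.6), 10.3% in DSS-2 (2.87 to 24.2) and 44.0% in DSS-3 (24.4 to 65.1). In the Indirubin libraries it made up 79.6% (71.0 to 86.6), 49.0% (39.1 to 59.0) and 53.9% (46.0 to 61.6). Indirubin thus lay above DSS in every library, though the interval of DSS-3 reached into those of Indirubin-2 and Indirubin-3. The Control shares were 5.13% (0.627 to 17.3), 21.4% (8.30 to 41.0) and 62.5% (35.4 to 84.8). Control-3 lay inside the Indirubin range, so Control and Indirubin overlapped in this share although they did not in the Crebbp level. These intervals cover counting error only. The deposited lengths of the genes, 13540 and 14273 bases, are close enough that counts and counts per length give a similar picture.

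**Figure D1:**
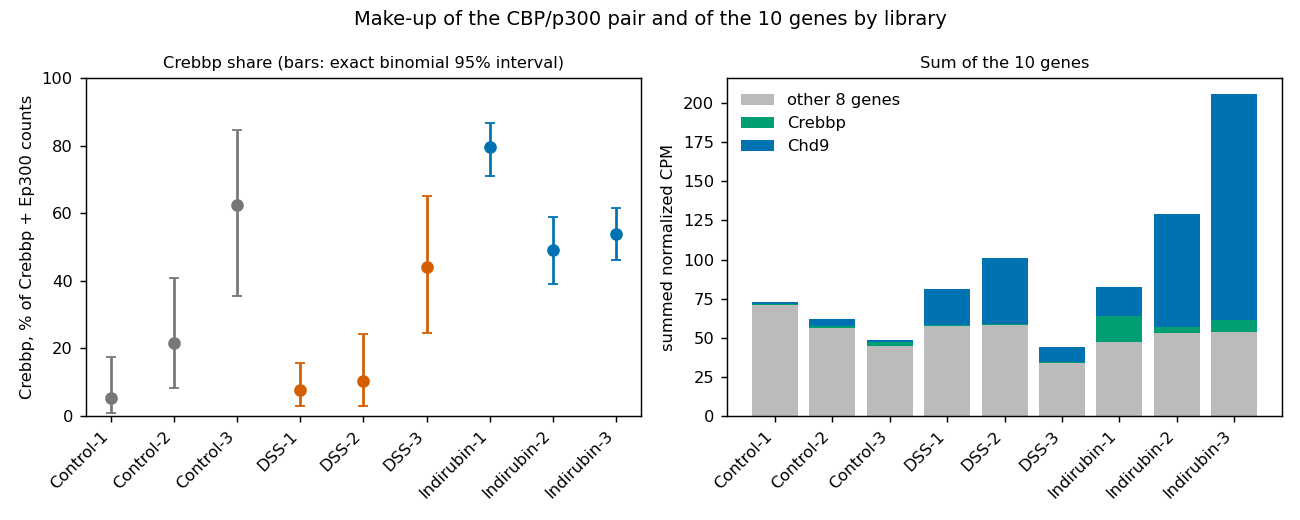
The left panel plots Crebbp as a percentage of Crebbp plus Ep300 counts in each of the 9 libraries, with exact binomial 95% intervals. The right panel stacks the normalized CPM of Chd9, Crebbp and the other 8 genes, and Chd9 accounts for 22.2% to 70.2% of the summed counts in DSS and Indirubin libraries against 1.87% to 8.17% in Control libraries.

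Chd9 (ENSMUSG00000056608, chromosome 8, 91554980 to 91781144), a nuclear receptor-associated member of the family, differed over the widest range. It had 7, 29 and 5 counts in Control, 197, 239 and 108 in DSS and 100, 886 and 1678 in Indirubin libraries. In normalized CPM these were 1.36, 5.08 and 1.21, then 23.2, 42.2 and 9.83, then 18.3, 72.3 and 144. Every DSS and every Indirubin library lay above every Control library, while Indirubin-1 lay between the DSS libraries.

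DSS against Control holds no Indirubin library, and it shares its DSS libraries with indirubin against DSS. The rise with indirubin that led to the choice of genes may have been read against Control too. The p-values here are thus not from a fully unused comparison. Here Chd9 rose 10.1-fold, from 2.55 ± 2.19 to 25.1 ± 16.2 normalized CPM (log2 fold change 3.33 with a standard error of 0.65). Its adjusted p = 0.0329 came from edgeR's quasi-likelihood test, adjusted by the Benjamini-Hochberg method over 7482 genes. It was the only one of the 8 members fitted to pass, where 0.708% of all genes fitted passed in either direction, and it ranked 27 from the top by fold change. It was also the only member with no overlap between these groups (p = 0.10, exact two-sided permutation test, the smallest p possible), against 7.11% of all genes without overlap that were higher and 8.54% that were lower. Leaving out 1 library ended the call in 5 of 6 cases. The adjusted p was 0.269 without Control-1, 0.0511 without Control-2, 0.242 without Control-3, 0.0513 without DSS-1, 0.135 without DSS-2 and 0.0232 without DSS-3, and 0.0917 when all 9 libraries shared one fit, while the log2 fold change stayed between 2.66 and 4.29.

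Levels of the immune cell lists were read beside Chd9. The summed level of the 7 neutrophil markers was 1.16 to 3.15 normalized CPM in Control, 11.5 to 19.7 in DSS and 25.1 to 243 in Indirubin libraries. Most of it was S100a8 and S100a9. Of the 7, 2 to 3 were detected in the Control libraries, 2 to 5 in DSS and 5 to 7 in Indirubin libraries. Csf3r had 20, 0 and 9 counts in DSS and 4, 84 and 0 in Indirubin libraries, and Retnlg 6, 0 and 2, then 1, 120 and 29. The defining markers Ly6g and Mpo were at 0 in all Control and DSS libraries and in Indirubin-1, and Elane had 7 counts in DSS-3 and 4, 16 and 3 with indirubin. The 6 Kupffer cell markers summed to 59.2 to 118 in Control, 107 to 127 in DSS and 119 to 157 in Indirubin libraries, all 6 detected throughout. The 5 monocyte markers summed to 17.4 to 26.6, 20.1 to 28.0 and 27.6 to 43.2 in the same order. The T cell and B cell markers stayed at or below 9.79 in every library and overlapped between all groups. In DSS-1, DSS-2 and DSS-3 the neutrophil sum was 19.7, 11.5 and 13.6, where Chd9 was at 23.2, 42.2 and 9.83, and S100a8 was among the 8 genes whose levels were most like those of Chd9 over the 9 libraries. The 6 hepatocyte markers summed to 10296 to 17124, 8393 to 15873 and 6033 to 9558. The part of these differences in the Chd9 level was not tested.

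With indirubin, Chd9 reached 78.3 ± 63.2 normalized CPM, 3.12-fold above DSS (log2 fold change 1.64, standard error 0.68), with overlap. Indirubin-2 and Indirubin-3 carried this difference: with Indirubin-1 alone the log2 fold change against DSS was -0.44. It was 0.87 without Indirubin-3, 2.17 without DSS-2 and 2.25 with scaling by library total alone. Indirubin-2 and Indirubin-3 also held the highest erythroid sums, 610 and 575 normalized CPM, whose part in the Chd9 level was not tested. Against Control the log2 fold change of Chd9 was 4.95 (standard error 0.79) with all 3 Indirubin libraries and 2.80 with Indirubin-1 alone. It was 4.16 without Indirubin-3, 5.90 without Control-2 and 6.04 with scaling by library total alone. The groups did not overlap in that comparison. Short annotated transcripts inside the Chd9 gene on the same strand, Gm45640 and Gm45643, had 15 and 12 counts and 6 and 15 counts in Indirubin-2 and Indirubin-3 and none elsewhere. Whether strand was used in counting is not given in the sources used here, and these counts are small beside those of Chd9.

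**Figure D2:**
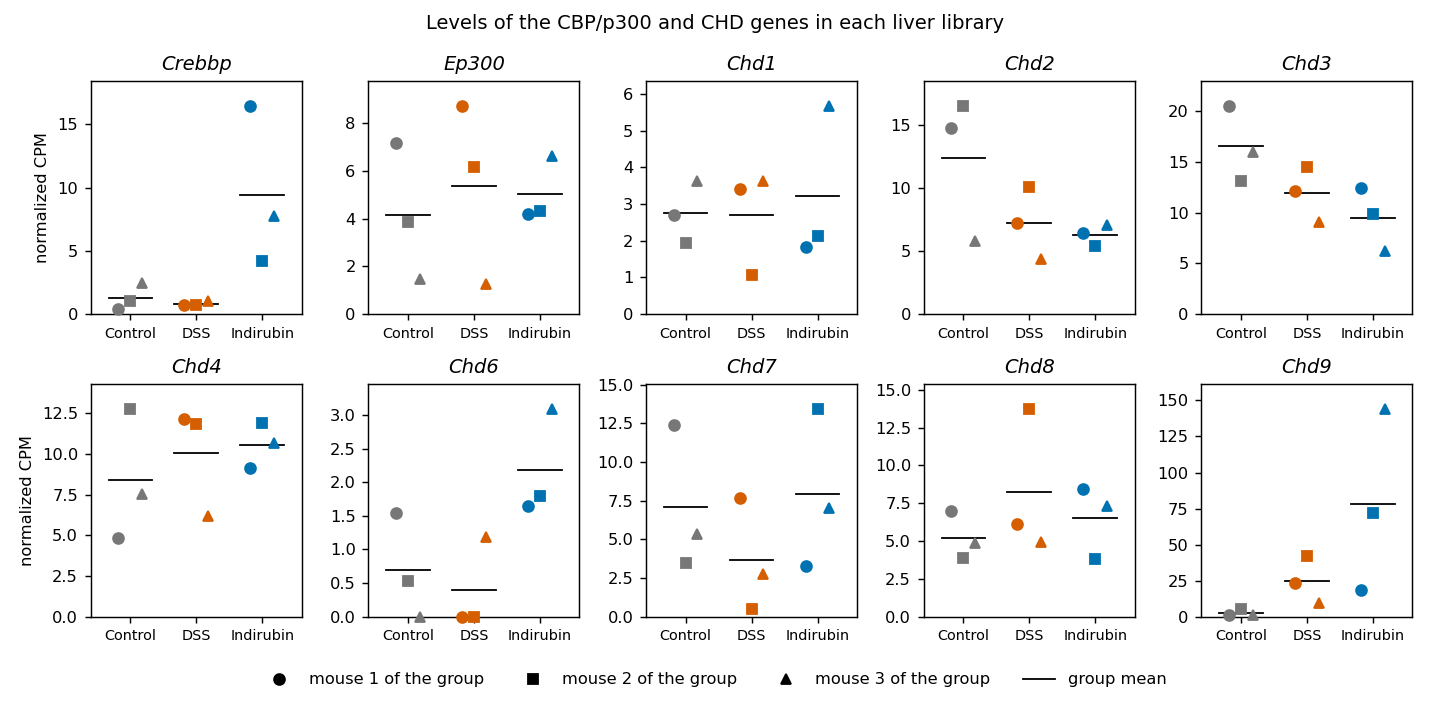
Each panel plots one gene, with the normalized CPM of each of the 9 libraries as points (linear axes from 0, a separate scale for each gene) and group means as lines. Crebbp points with indirubin sit between 4.16 and 16.5, above all 6 others, and Chd9 points lie between 1.21 and 5.08 in Control and between 9.83 and 144 in the other groups.

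The other members of the Chd9 subfamily varied less evenly. Chd6 (ENSMUSG00000057133, chromosome 2, 160788898 to 160950995) was the member with the fewest counts, at 8, 3 and 0 in Control, 0, 0 and 13 in DSS and 9, 22 and 36 in Indirubin libraries. All 3 Indirubin libraries lay above the other 6, at 2.18 ± 0.798 normalized CPM against 0.394 ± 0.683 in DSS and 0.692 ± 0.788 in Control. Its fitted log2 fold change against DSS was 2.35, with a standard error of 1.61 that covers much of the value, and DSS-3 held all of the DSS counts. It was 1.70 without DSS-1, 3.99 with the replicate number as a block and 1.97 with Indirubin-1 alone, and a fitted 7.25 without DSS-3, where no DSS count remains and the value depends on the prior count. Chd7 (ENSMUSG00000041235, chromosome 4, 8690406 to 8867659), the gene altered in CHARGE syndrome, had 64, 20 and 22 counts, then 65, 3 and 30, then 18, 165 and 82. Its groups overlapped in every comparison. The log2 fold change was -0.90 (standard error 0.80) for DSS against Control and 1.11 (standard error 0.80) for indirubin against DSS, and DSS-2 with 3 counts was its lowest library. The first of these was -2.06 without DSS-1 and -0.25 without Control-1. The difference from DSS was 0.50 without Indirubin-2, 2.12 without DSS-1 and -0.16 with Indirubin-1 alone, and against Control it was 0.21, or -1.12 with Indirubin-1 alone. Chd8 (ENSMUSG00000053754, chromosome 14, 52435608 to 52495237), a remodeler that binds β-catenin, had 36, 22 and 20 counts, then 52, 78 and 54, then 46, 47 and 85, and overlapped throughout, with log2 fold changes of 0.70 (standard error 0.56) for DSS against Control and -0.34 (standard error 0.55) for indirubin against DSS. The first was 0.08 without DSS-2 and 0.99 without DSS-3. The second was -0.67 without Indirubin-1, 0.16 without DSS-2 and 0.04 with Indirubin-1 alone.

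Of the NuRD motors, Chd3 (ENSMUSG00000018474, chromosome 11, 69234099 to 69260232) had 106, 75 and 66 counts in Control, 103, 82 and 100 in DSS and 68, 121 and 72 in Indirubin libraries. Its levels were 16.6 ± 3.73, 11.9 ± 2.69 and 9.50 ± 3.14 normalized CPM. All Indirubin libraries lay below all Control libraries (log2 fold change -0.79, standard error 0.40), a direction that turned to 0.12 with scaling by library total alone, under which the median of all genes was 1.09 in place of 0.12. Chd4 (ENSMUSG00000063870, chromosome 6, 125072944 to 125107554) had 25, 73 and 31 counts, then 103, 67 and 68, then 50, 146 and 124. It lay at 8.38 ± 4.04, 10.1 ± 3.35 and 10.6 ± 1.38 normalized CPM, and the log2 fold change was 0.32 (standard error 0.50) for DSS against Control and 0.08 (standard error 0.44) for indirubin against DSS, which ranged from -0.19 without DSS-3 to 0.13 without DSS-2 and was 0.48 with scaling by library total.

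The pair associated with active transcription also overlapped between all groups. Chd1 (ENSMUSG00000023852, chromosome 17, 15925229 to 15992872) had 14, 11 and 15 counts, then 29, 6 and 40, then 10, 26 and 66. Its log2 fold change was 0.00 (standard error 0.84) for DSS against Control and 0.24 (standard error 0.83) for indirubin against DSS, or -0.58 with Indirubin-1 alone, -0.45 without Indirubin-3 and 0.49 without DSS-3. Chd2 (ENSMUSG00000078671, chromosome 7, 73076386 to 73191578) had 76, 94 and 24 counts, then 61, 57 and 48, then 35, 66 and 82, or 12.3 ± 5.71, 7.21 ± 2.84 and 6.28 ± 0.842 normalized CPM. Its log2 fold change was -0.72 (standard error 0.50) for DSS against Control and -0.95 (standard error 0.46) for indirubin against Control. With scaling by library total alone these were -0.20 and -0.033, and the first was -1.12 without Control-3 and -0.44 without DSS-3. Its neighbour Chaserr, a noncoding RNA known to restrain Chd2, overlaps it on the same strand and had 4 to 38 counts a library, so the counts of the 2 genes may not be fully separate. The neuronal member Chd5, which was not among the 10, had 1 count in all 9 libraries together.

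**Figure D3:**
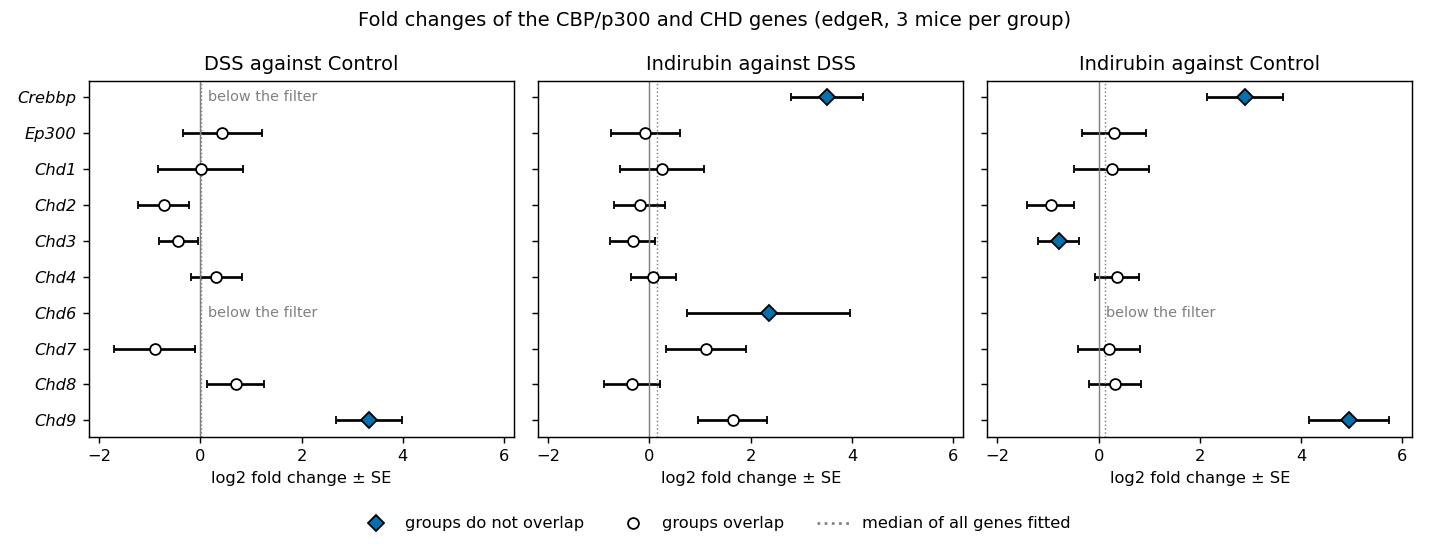
Points give the log2 fold change of each gene with its standard error in the 3 comparisons (n = 3 mice per group), filled diamonds where the groups do not overlap, and the dotted line gives the median of all genes fitted. Chd9 stands at 3.33 for DSS against Control, Crebbp at 3.51 and Chd6 at 2.35 for indirubin against DSS, and Chd9 at 4.95 and Crebbp at 2.90 for indirubin against Control.

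The members were also counted together. For DSS against Control, 5 of the 8 fitted members had a log2 fold change above 0, beside 50.6% of all genes fitted, and Crebbp and Chd6 did not pass the filter on low counts. The median of the members, 0.16 against 0.01 over all genes fitted, had no stable sign: it was -0.24 with all 9 libraries in one fit, -0.21 without the filter, -0.22 without DSS-1 or without Control-2, and 0.85 with scaling by library total alone. For indirubin against DSS, all 10 were fitted, 6 lay above 0 (56.7% of all genes), and the median was 0.16 against 0.15 over all genes, or -0.14 with Indirubin-1 alone. Crebbp and Chd6 passed that filter here with the help of their Indirubin counts. Crebbp and Chd6 were the 2 of 10 without overlap on the higher side, where 10.5% of all 9117 genes fitted had none, and no member was without overlap on the lower side, where 5.93% had none. These shares are a description, since the set was chosen for levels with indirubin. For indirubin against Control, 9 were fitted, with a median of 0.30 against 0.12, which was 1.29 with scaling by library total, 0.72 without Control-1 and -0.0044 with Indirubin-1 alone. Crebbp and Chd9 were higher without overlap (12.3% of all genes) and Chd3 lower (9.27% of all genes). All these comparisons share libraries and are not independent of each other. Without Crebbp and Chd9, the summed level of the other 8 genes was 44.6 to 70.9 normalized CPM in Control, 33.4 to 57.9 in DSS and 47.4 to 53.7 in Indirubin libraries.

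Per kilobase of deposited gene length, the order of the levels differed between groups. Chd3 led in Control (1.96 ± 0.441 normalized CPM per kb) and in DSS (1.41 ± 0.319), followed by Chd4 at 1.05 ± 0.504 and 1.25 ± 0.418. With indirubin Chd9 led, at 3.38 ± 2.73, from place 8 in Control (0.110 ± 0.0947) and place 3 in DSS (1.08 ± 0.702). Crebbp stood at place 9 in Control and DSS (0.0951 ± 0.0767 and 0.0594 ± 0.0125) and at place 4 with indirubin (0.698 ± 0.467). Chd6 came last in each group. Neighbours in this order were not separated: their library ranges overlapped in all 9 neighbouring pairs in Control and in DSS and in 8 of 9 with indirubin, the exception being Ep300 above Chd6.

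By deposited length, all 10 genes are long, at percentile 81.0 or higher of the genes fitted for indirubin against DSS. This length is not the span on the chromosome: for Chd9 it is 23148 bases, while its coordinates run from 91554980 to 91781144. Fold changes followed the deposited length in these libraries. For indirubin against DSS, the median log2 fold change went from -0.09 in the shortest of 5 equal-sized length bins (1823 genes) to 0.40 in the longest (1824 genes), and the share without overlap on the higher side went from 6.69% to 15.7%. For DSS against Control it went the other way, from 0.14 to -0.09. In that comparison Chd9 was at 3.33, and with indirubin against DSS Crebbp was at 3.51, in a length bin with an upper quartile of 1.04. Ep300, Chd2, Chd3, Chd4, Chd8 and Chd1 lay below the median of that bin, 0.40, with indirubin. The part of the deposited length in the members' values was not tested.

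**Figure D4:**
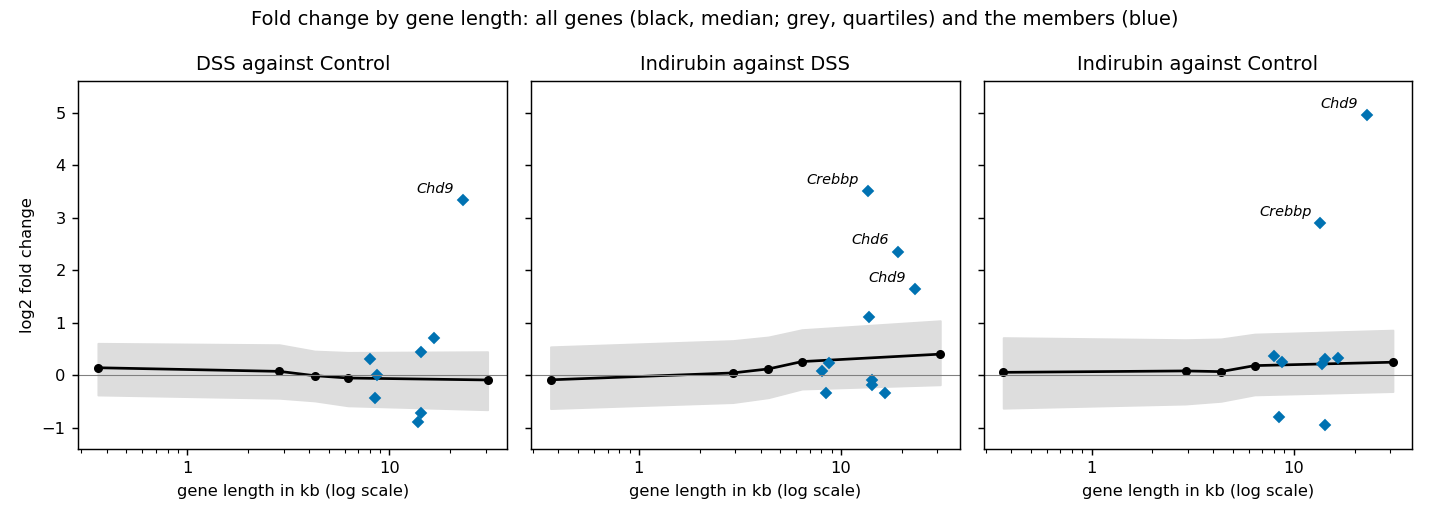
Black points join the median log2 fold change of all genes fitted in 5 equal-sized bins of deposited gene length (placed at the geometric middle of each bin, log axis in kb), grey bands span the quartiles, and blue diamonds are the members fitted. Medians run from -0.09 to 0.40 for indirubin against DSS and from 0.14 to -0.09 for DSS against Control, and Chd9 and Crebbp lie above the grey bands in each panel that shows them.

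The regulators that work with CHD and CBP/p300 proteins were described from fixed lists: NuRD, SWI/SNF, ISWI, INO80 and SRCAP remodelers, other acetyltransferases, deacetylases and corepressors, BET readers with MLL methyltransferases and Mediator, CBP/p300-binding transcription factors and, counted separately, liver CREB targets. Over the 128 genes of the lists other than the CREB targets, 87 were fitted for DSS against Control. The 128 include Chd5, and Crem, which is also on the list of CREB targets. None passed the adjusted test, none was higher at an unadjusted p under 0.05 (3.46% of all genes) and 1 was lower (4.05% of all genes), with a median log2 fold change of -0.24 against 0.01 over all genes. Of the 7 CREB targets fitted there, Irs2 and G6pc were lower at that level, neither of them past edgeR's adjusted test.

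For indirubin against DSS, 108 of the same 128 were fitted and 81 had a log2 fold change above 0 (beside 56.7% of all genes), with a median of 0.46 against 0.15 over all genes. Some of them, Ino80 and Setd1b included, were not fitted for DSS against Control. They passed the count filter here with the help of their Indirubin counts, which favours values above 0, so the 81 is a description. At an unadjusted p under 0.05 there were 7 higher (4.44% of all genes) and 1 lower (3.22% of all genes), and no gene in the whole fit had an adjusted p under 0.05 in edgeR's test, where an unadjusted p under 0.05 was reached by 405 higher and by 294 lower genes, and DESeq2's Wald test made 80 calls. Among the 7 were Ino80, Gatad2b, Mbd2, Setd1b, Cebpb and Epas1. Ino80, the motor of the INO80 remodeler, had 3, 0 and 0 counts in DSS and 27, 49 and 57 with indirubin, beside 8, 5 and 5 in Control. Gatad2b and Mbd2, subunits that share NuRD with Chd3 and Chd4, had log2 fold changes of 2.13 (standard error 0.80, edgeR adjusted p = 0.530) and 1.02 (standard error 0.43, edgeR adjusted p = 0.606). Chd3 and Chd4 were at -0.33 and 0.08. Of the 12 other NuRD subunits listed, all fitted, 8 lay above 0, with a median of 0.46. The differences between subunits were not tested. Setd1b, a histone H3 lysine methyltransferase, was at 2.14 (standard error 0.87, edgeR adjusted p = 0.598). With Indirubin-1 alone, 115 of the 128 were fitted, 77 of them above 0 (49.6% of all genes), and the median was 0.31 against -0.015 over all genes. There, 3 had an unadjusted p under 0.05 with higher levels (1.75% of all genes) and 0 with lower levels (1.97% of all genes), and again no adjusted call.

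Among the factors that recruit CBP and p300, Cebpb was at 19.7 ± 2.17 normalized CPM with indirubin against 7.11 ± 5.24 with DSS (log2 fold change 1.45, edgeR adjusted p = 0.619). Epas1, which encodes HIF-2α, was at 51.8 ± 17.2 against 24.6 ± 11.6 (1.07, edgeR adjusted p = 0.619). Both were higher without overlap, as were 15 of the 108 listed regulators fitted and 10.5% of all genes. With indirubin, Epas1 overlapped Control, at 28.4 ± 14.2. Srebf1, the lipogenic regulator, was lower, at 2.31 ± 1.17 against 6.54 ± 2.94 (-1.53, edgeR adjusted p = 0.627). Of the CREB targets, 8 of 9 fitted lay above 0 with indirubin (56.7% of all genes), some of them fitted with the help of their Indirubin counts. Their median log2 fold change was 0.96. With Indirubin-1 alone, 4 of 10 lay above 0 (49.6% of all genes), with a median of -0.19. With all libraries the exception was G6pc, the catalytic subunit of glucose-6-phosphatase, at 5.13 ± 2.83 against 13.8 ± 9.15 (-1.45, edgeR adjusted p = 0.601). G6pc was at 28.3 ± 8.38 in Control. Irs2, an insulin receptor substrate, had 18, 15 and 14 counts in Control, none in DSS and 29, 46 and 8 with indirubin. With Indirubin-1 alone, the log2 fold changes against DSS were 1.33 for Gatad2b, 1.08 for Mbd2, 2.69 for Setd1b, 1.25 for Cebpb, 1.53 for Epas1, -0.85 for Srebf1 and -0.76 for G6pc. For indirubin against Control, 106 of the same 128 genes were fitted, some of them with the help of their Indirubin counts. At an unadjusted p under 0.05, 7 were higher (7.45% of all genes) and 3 lower (6.38% of all genes), with no adjusted call among them. With all libraries 68 of the 106 lay above 0 (64.2%, beside 55.5% of all genes), and with Indirubin-1 alone 65 of 112 did (58.0%, beside 50.4%). In that fit 3 were higher at an unadjusted p under 0.05 (2.72% of all genes), 5 lower (5.11% of all genes) and none past the adjusted test. Of the 10 CREB targets fitted against Control with all libraries, 1 was lower at an unadjusted p under 0.05, G6pc, with a difference of -2.47 on the log2 scale (standard error 0.47, edgeR adjusted p = 0.0549). With all libraries 8 of these 10 lay above 0, with a median log2 fold change of 0.73, and with Indirubin-1 alone 3 of 10, with a median of -0.79.

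RNAs that stay in the nucleus were read beside these long transcripts. Neat1 fell from 16.3 ± 0.196 normalized CPM in Control to 3.26 ± 0.975 in DSS (log2 fold change -2.28, standard error 0.44, edgeR adjusted p = 0.0329), and lay at 3.20 ± 1.45 with indirubin. Malat1 was at 6.55 to 9.46 in Control, 2.71 to 4.06 in DSS and 2.49 to 4.08 in Indirubin libraries. Its log2 fold change for DSS against Control was -1.10 (standard error 0.53, edgeR adjusted p = 0.698). Both were lower in DSS than in Control libraries without overlap (8.54% of all genes), and neither separated the DSS from the Indirubin libraries, where Crebbp did. Meg3, of the same list of 4, did separate them, at 2.48, 0 and 0 normalized CPM in DSS and 3.66, 2.61 and 6.88 in Indirubin libraries (log2 fold change 2.37, standard error 1.35, edgeR adjusted p = 0.768), beside 0, 0 and 3.39 in Control. Kcnq1ot1 overlapped between DSS, at 0.176 to 2.27, and Indirubin, at 1.29 to 4.73. Whether they bear on the Chd9 result was not tested.

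Over the 9 libraries, Pearson's r of the log2 levels was 0.44 between Crebbp and Chd9 and -0.09 between Crebbp and Ep300. These points share 3 groups and their depth, so the values are a description. Among 6503 genes with at least 10 counts in at least 6 libraries, the 8 most like Crebbp were G6pdx (r = 0.95), Rilpl2, Ralb, Ubl3, Unc45a, Timm17a, Gtf2i and Hmgn2-ps (r = 0.88). G6pdx, the first enzyme of the pentose phosphate pathway, ranged from 1.16 to 3.88 normalized CPM in Control, 2.36 to 2.73 in DSS and 5.06 to 9.33 in Indirubin libraries. The 8 most like Chd9 were Ccar1 (r = 0.96), Btf3, Marco (r = 0.95), Snx10, Grk6, S100a8 (r = 0.94), Pabpc1 and Rpl32 (r = 0.92). Ccar1, a coactivator of nuclear receptors, ranged from 9.68 to 19.1, then 22.3 to 55.7, then 36.4 to 99.3. Marco, a scavenger receptor of Kupffer cells, had 11, 17 and 12 counts in Control, 76, 112 and 150 in DSS and 47, 380 and 833 in Indirubin libraries. Its Indirubin-1 level, 8.60 normalized CPM, lay just below the DSS range of 8.97 to 19.8, while for Chd9 that library lay inside the DSS range. By Spearman rank correlation, 2 of the 8 genes most like Crebbp and 5 of the 8 most like Chd9 stayed among the first 8.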

How the data were processed

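For each mouse, 400 ng of liver RNA (Qiagen RNeasy Plus Micro) went into a library that the authors sequenced on a DNBSEQ instrument. The submitters' processing notes name build GRCm39; aligner, counting program and strand setting are not given in the sources used here. The authors deposited whole-number counts per gene, without normalization, and FPKM values, used here only to check the order of levels per length, which they left the same. Deposited columns of the authors' own comparisons, and 3 gene lists without values per mouse, were not used.

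Each comparison was fitted in R 4.3.3 by edgeR 4.0.16 (TMM scaling; filterByExpr, which needs 10 counts in enough libraries and 15 in total; glmQLFit and glmQLFTest; Benjamini-Hochberg adjustment over all genes fitted) on its 6 libraries. The standard error is the log2 fold change over the square root of F. Correlations used log2 CPM with a prior count of 2. Genes named are the members, Chd5, up to 3 list genes each way with the smallest unadjusted p under 0.05, and the 8 most like Crebbp and Chd9; nuclear-retained RNAs and cell markers were named as lists; some list genes that meet this rule are not reported here. Promoter letters came from RefSeq. The members, the lists and these rules were chosen with earlier results of these data known. Alternatives were DESeq2 1.42.0 size factors and Wald test, library size alone, no mitochondrial genes, 2 other filters, a fit of all 9 libraries together, a block by replicate number, and each library left out in turn. Same-numbered mice did not deviate together (correlations between -0.025 and 0.024), and nothing in the labels pairs them.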

Additional observations from a re-analysis of the deposited data

How the results depend on the processing

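Calls over all genes depended on the processing. For DSS against Control, 53 genes were called, against 19 with library size alone, 143 by DESeq2's Wald test, 125 without a filter, 84 with at least 10 counts in every library, 11 with all 9 libraries in one fit, 30 with the replicate number as a block, and 12 to 64 with each library left out. For indirubin against DSS the 0 calls became 2, 80, 156, 2, 4, 3 and 0 to 134 in the same order, and for indirubin against Control the 19 became 243, 316, 379, 72, 56, 49 and 1 to 465. The causes were not tested.

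For DSS against Control, the log2 fold change of Chd9 was 3.25 with all 9 libraries in one fit and 2.66 to 4.29 with each library left out, and 1 to 2 members had an unadjusted p under 0.05 in those last fits. With at least 10 counts in every library that number was 0, because Chd9 itself was not fitted. With the replicate block Chd9 kept its call (adjusted p = 0.00678, edgeR). The replicate numbers pair no samples by the labels or the data, so the block has no meaning of its own here. Chd1, at 0.00, was -0.025 with DESeq2 size factors, -0.014 without mitochondrial genes, -0.019 in DESeq2's Wald test, -0.0079 with all 9 libraries, -0.12 with the replicate block and -0.22 to 0.36 with each library left out. Chd3 was 0.17 with library size alone. With each library left out, Chd4 ranged from -0.015 to 0.71 and Ep300 from -0.13 to 1.01.

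For indirubin against DSS, Crebbp ranged from 2.76 to 3.86 with each library left out. Without both Indirubin libraries that hold pancreatic transcripts, an alternative chosen after seeing the data in which the lone library is assumed to vary like the others, Crebbp was at 4.31 and Chd9 at -0.44 against DSS, and Chd9 at 2.80 against Control. With library size alone the median of all genes moved to 0.69, 0.42 and 1.09 in the 3 comparisons (DSS against Control, indirubin against DSS, indirubin against Control).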
